A study of Mus musculus with 14 samples.

Results

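The libraries described here were the 4 RNA-seq libraries of untransfected EpRas cells, 4 of 14 in the series, taken by their labels. EpRas is a derivative of EpH4, a mouse mammary gland epithelial line, that was transformed with H-Ras and grown in 4% fetal bovine serum. Both EpRas groups carried the same Ras transformation, and they differed in treatment: 2 libraries came from cells given 1 ng/ml TGF-β3 for 48 h and 2 from cells left untreated. The comparison asks which genes TGF-β raises or lowers in a Ras-transformed mammary line. Beside it stand the parental EpH4 cells, with the same treatment and time in 10% serum (2 treated and 2 untreated libraries), and EpRas cells transfected with a negative control siRNA (siNC, 1 treated and 1 untreated library) or with either of 2 siRNA pairs against Etv4 and Etv5 (1 treated and 1 untreated library each). EpRas is 1 transformed line, so a property of that line and an effect of Ras cannot be told apart. The study describes the replicates as biological, while the labels do not say whether they were separate cultures, and p-values measure only the spread between these libraries. All RNA was poly(A) selected and sequenced directionally on the Ion Proton.

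TGF-β ligands bind a type II receptor kinase that switches on a type I receptor, and the latter phosphorylates Smad2 and Smad3, which enter the nucleus with Smad4. Their target genes include matrix proteins, the inhibitors that feed back on the pathway and, in many epithelia, genes that stop the cell cycle. In epithelial cells TGF-β is known for driving the epithelial-mesenchymal transition (EMT), in which cells lose junctions and keratin networks and gain matrix secretion, stress fibres and motility. Ras signalling through ERK acts on AP-1 and ETS transcription factors and is known to work with TGF-β in this transition.

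Levels were given as FPKM, reads per kilobase of transcript, scaled to the mapped reads of each library. The step between the lowest FPKM values gave the relative depth of the libraries: with the first untreated EpRas library set to 1, the second stood at 1.86, and the treated ones at 1.41 and 1.09. A gene at 5 FPKM rested on a median of 45.4 and 84.5 reads in the untreated and 64.0 and 49.7 reads in the treated libraries. Agreement between replicates was lower for the treated pair. Across 9100 tested genes the correlation of log2(FPKM + 1) was 0.957 in the untreated pair and 0.912 in the treated pair, against 0.964 and 0.982 in the EpH4 pairs. The median standard deviation of a gene within a pair was 0.147 on the log2 scale for untreated and 0.214 for treated EpRas cells. Both values are therefore given for each gene that is described by its level.

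The epithelial label was checked against marker genes. Krt8 and Krt18, the keratin pair of simple epithelia, stood at 1114 and 814 FPKM and 1449.6 and 1081 FPKM in the untreated libraries, and Cdh1 (E-cadherin) at 24.4 and 27.4 FPKM. Untreated EpRas cells also held 924 and 1156 FPKM of Vim, the mesenchymal intermediate filament vimentin, and 35.8 and 26.2 FPKM of Cdh2 (N-cadherin), where untreated EpH4 cells held 0.939 and 0.769 FPKM and 0.0766 and 0.0283 FPKM. None of the 7 endothelial markers reached 1 FPKM in an EpRas library, nor did 6 of 8 immune and 5 of 6 adipocyte markers. The 8 fibroblast markers summed to 8.42 to 13.6 FPKM per EpRas library. Hras1, which an H-Ras transgene may share reads with, was at 126 and 85.9 FPKM untreated and 104 and 127 FPKM with TGF-β, with 101 and 103 FPKM in untreated EpH4 cells, so its level did not mark the transformed line. Transcript of Pgr, the progesterone receptor, was listed at 0 in all 4 EpRas libraries. Esr1, the oestrogen receptor, was at 1.36 and 1.93 FPKM untreated and 1.4 and 0.434 FPKM with TGF-β, and Erbb2 at 22.7 and 19.7 FPKM untreated and 16.6 and 19.9 FPKM with TGF-β.

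After 48 h of TGF-β, 173 of 9100 genes (1.9%) rose and 175 (1.92%) fell in EpRas cells at an adjusted p under 0.05, by limma on log2(FPKM + 1) with Benjamini-Hochberg adjustment over all genes tested, 348 (3.82%) in all. Both treated libraries lay on the same side of both untreated libraries for each of these 348 genes, against 18.5% of all genes tested that lay above and 20.9% that lay below. The genes were called on these same libraries, so this separation follows largely from the call. The changes of the called genes ran from 0.71 to 7.37 on the log2 scale among increases, and from 0.68 to 5.31 in size among decreases. The median log2 difference over all genes tested was -0.02. A difference of 2-fold or more, with no test, was seen for 215 genes (2.36%) upward and 199 (2.19%) downward, and 127 and 126 of these were called. Without the second treated library 377 genes were at least 2-fold lower, and with 5 FPKM added 140 were higher and 90 lower. The counts depend on the libraries: without the first or the second untreated library 75 and 70 genes rose and 54 and 57 fell, and without the first or the second treated library 136 and 215 rose and 103 and 198 fell. Fitted on the EpRas libraries alone, with no EpH4 libraries to share the estimate of spread, limma called 30 increases and 15 decreases.

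The largest increase outside the small RNA genes was that of Mmp9. Mmp9, a gelatinase that cuts basement membrane collagen, went from 32.2 and 24.2 FPKM in the untreated libraries to 335 and 596 FPKM with TGF-β (log2 change 3.95 ± 0.29, SE; adjusted p = 0.000655). The second treated library was the higher of the pair, and both were far above the untreated range. Gng11, a G protein gamma subunit, was at 15.8 and 20.6 FPKM untreated and 179 and 212 FPKM with TGF-β (3.36 ± 0.24). Clu, the secreted chaperone clusterin, was at 72.2 and 54.6 FPKM untreated and 469 and 849 FPKM with TGF-β (3.31 ± 0.29). Tnc, the matrix glycoprotein tenascin C, was at 45.9 and 45.1 FPKM untreated and 505 and 390.4 FPKM with TGF-β (3.26 ± 0.17). Among signalling genes, Rgs16, which speeds up GTP hydrolysis by G protein alpha subunits, stood at 4.58 and 4.93 FPKM untreated and 47 and 40.7 FPKM with TGF-β (2.96 ± 0.15). Cotl1, an actin-binding protein, was at 70.2 and 60.2 FPKM untreated and 326 and 574 FPKM with TGF-β (2.72 ± 0.27). For Mmp9, Clu and Cotl1 the second treated library was the higher one, and for Tnc and Rgs16 the first.

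**Figure D1:**
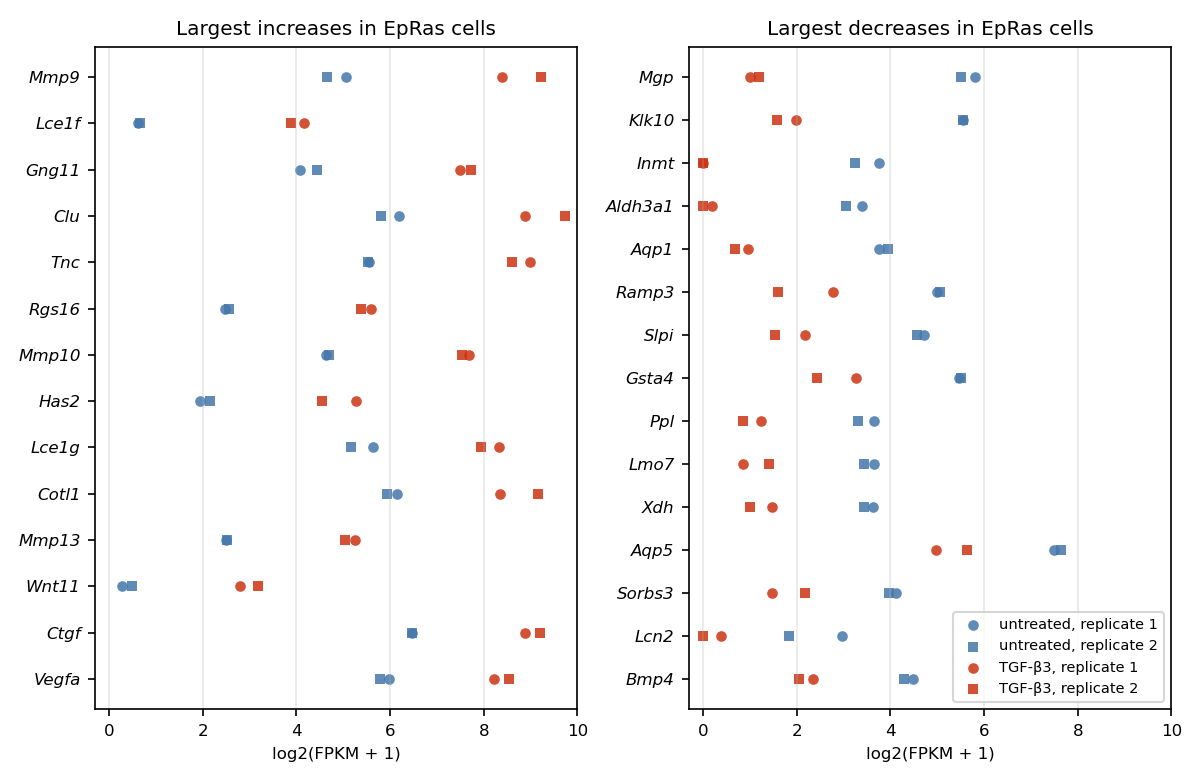
Level of 14 of the 15 genes with the largest increase (left) and the 15 with the largest decrease (right) in EpRas cells, as log2(FPKM + 1) in each of the 2 untreated (blue) and 2 TGF-β3-treated (red) libraries; circles are replicate 1 and squares replicate 2. Red and blue points are apart for each gene shown, and genes listed at 0 sit at the left edge of the right panel.

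The largest decrease outside the small RNA genes was that of Mgp. Mgp, the matrix Gla protein that inhibits calcification, dropped from 54.8 and 44.2 FPKM to 0.998 and 1.28 FPKM (log2 change -4.56 ± 0.23, adjusted p = 0.000231). Klk10, a secreted kallikrein protease, was at 46.1 and 45.5 FPKM untreated and 2.93 and 1.99 FPKM with TGF-β (-3.77 ± 0.17). Both were among the 5 decreases with the smallest adjusted p. Inmt, an indolamine N-methyltransferase, was at 12.6 and 8.41 FPKM untreated and was listed at 0 in both treated libraries. Aldh3a1, an aldehyde dehydrogenase, was at 9.51 and 7.33 FPKM untreated and 0.142 and 0 FPKM with TGF-β. The water channels Aqp1 and Aqp5 both fell, Aqp1 from 12.5 and 14.4 FPKM to 0.931 and 0.599 FPKM (-3.03 ± 0.17) and Aqp5 from 180.4 and 199 FPKM to 30.3 and 49 FPKM (-2.27 ± 0.29). Ramp3, a subunit of adrenomedullin receptors, stood at 30.7 and 32.1 FPKM untreated and 5.84 and 2.0 FPKM with TGF-β (-2.84 ± 0.35), the second treated library being the lower one. Slpi, a secretory leukocyte protease inhibitor of epithelial fluids, was at 25.3 and 22.7 FPKM untreated and 3.53 and 1.89 FPKM with TGF-β (-2.79 ± 0.25), and Lmo7, a protein of cell junctions, at 11.6 and 9.75 FPKM untreated and 0.807 and 1.64 FPKM with TGF-β (-2.41 ± 0.21). Sorbs3, the adhesion scaffold vinexin, was at 16.5 and 14.6 FPKM untreated and 1.76 and 3.48 FPKM with TGF-β (-2.23 ± 0.44, adjusted p = 0.0394). Aldh3a1 and Lmo7 reached the 5 FPKM needed for testing only in untreated EpRas cells, and Mgp, Klk10, Inmt and Sorbs3 only in untreated libraries.

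The pathway's own genes changed in both directions. Of 38 tested ligands, receptors, Smads and feedback genes, 6 rose and 5 fell, against 1.9% and 1.92% of all genes tested, with a list median of 0.02. The genes that rose were Inhba, the activin A subunit (31.4 and 28.4 FPKM untreated and 80.6 and 112 FPKM with TGF-β, log2 change 1.64 ± 0.25), Grem1, a secreted BMP antagonist (11.1 and 7.32 FPKM untreated and 25.7 and 46 FPKM with TGF-β, 1.82 ± 0.29), Pmepa1, a feedback inhibitor that binds Smads (75.3 and 99.9 FPKM untreated and 172 and 225 FPKM with TGF-β, 1.17 ± 0.20), the activin receptor type I gene Acvr1 (9.66 and 10.7 FPKM untreated and 26.6 and 19.5 FPKM with TGF-β, 1.09 ± 0.18), Tgfb2 and Skil. Bmp4, a BMP ligand, fell from 21.2 and 18.5 FPKM to 4.1 and 3.13 FPKM (-2.18 ± 0.18). So did 2 classical BMP target genes that hold back differentiation, Id2 (9.4 and 8.28 FPKM untreated and 1.85 and 0.954 FPKM with TGF-β, -2.06 ± 0.24) and Id1 (111 and 89.4 FPKM untreated and 29.4 and 43.9 FPKM with TGF-β, -1.45 ± 0.25), together with the activin antagonist Fst (5.63 and 4.71 FPKM untreated and 1.58 and 0.717 FPKM with TGF-β, -1.55 ± 0.28) and the type II receptor Tgfbr2. Their relative Id3 was at 179.6 and 104 FPKM untreated and 25.9 and 60.1 FPKM with TGF-β and did not pass the test (adjusted p = 0.117), the treated values being far apart. Smad7, the inhibitory Smad, was at 8.64 and 8.29 FPKM untreated and 11.4 and 15.5 FPKM with TGF-β and also missed the threshold (adjusted p = 0.19). Leaving out 1 EpRas library left 0 to 5 increases and 1 to 4 decreases in this list, and no increase without either untreated library.

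Many matrix genes rose. Of 27 matrix proteins tested, 11 rose and 1 fell, against 1.9% of all genes tested that rose, and the list median was 0.61. Besides Tnc, these included Ctgf, a matricellular growth factor ligand (87.4 and 87.5 FPKM untreated and 474 and 589 FPKM with TGF-β, log2 change 2.58 ± 0.20), the fibrillar collagen Col5a3 (0.617 and 0.638 FPKM untreated and 6.0 and 8.2 FPKM with TGF-β, 2.30 ± 0.21) and Fn1, fibronectin (314 and 297 FPKM untreated and 894 and 935 FPKM with TGF-β, 1.58 ± 0.15, adjusted p = 0.00202). The others were Col16a1, Cyr61, Col7a1, Postn, Sparc, Col4a3 and Fbln2. Col5a3 and Col4a3 reached the 5 FPKM needed for testing only in TGF-β-treated libraries. Col4a5, a basement membrane collagen chain, fell (23.2 and 27.5 FPKM untreated and 6.56 and 8.22 FPKM with TGF-β, -1.65 ± 0.17). The major collagen I genes were barely read in these cells: Col1a1 was at 1.8 and 1.57 FPKM untreated and 1.59 and 2.78 FPKM with TGF-β and Col1a2 at 0.735 and 0.638 FPKM untreated and 0.120 and 0.413 FPKM with TGF-β, and neither passed the test. Of 17 enzymes that make or modify matrix, 1 rose and 3 fell, against 1.9% and 1.92% of all genes tested. Has2, a hyaluronan synthase, rose from 2.83 and 3.42 FPKM to 37.7 and 22.2 FPKM (2.86 ± 0.25), and it reached 5 FPKM only in TGF-β-treated libraries. The cross-linking enzymes Tgm2 (79.7 and 84.4 FPKM untreated and 33.4 and 30.3 FPKM with TGF-β, -1.34 ± 0.14) and Loxl4 (56.2 and 57.8 FPKM untreated and 22.9 and 25.2 FPKM with TGF-β, -1.21 ± 0.14) fell, as did the prolyl hydroxylase gene Leprel1. The Leprel1 call did not hold in most alternative settings, and fewer decreases passed in most fits that left out an EpRas library. With 1 EpRas library left out, 5 to 10 matrix proteins still passed as increases, and Has2 passed each time.

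Matrix proteases were among the largest increases. Of 25 proteases and inhibitors tested, 6 rose and 3 fell, against 1.9% and 1.92% of all genes tested (list median 0.20). The stromelysin Mmp10 stood at 23.8 and 24.8 FPKM untreated and 206 and 185 FPKM with TGF-β (log2 change 2.95 ± 0.21) and the collagenase Mmp13 at 4.63 and 4.74 FPKM untreated and 36.8 and 31.8 FPKM with TGF-β (2.63 ± 0.16, adjusted p = 0.000347). Mmp10, Mmp13 and Mmp9 rose in all 3 cases by more than the spread of either pair. The aggrecanase Adamts4 was at 0.322 and 0.779 FPKM untreated and 5.89 and 8.31 FPKM with TGF-β (2.38 ± 0.23). Adamts4 and Mmp13 reached the 5 FPKM needed for testing only in TGF-β-treated libraries. Adam12 rose too. Those that fell were the metalloprotease inhibitors Timp3 (27.4 and 22.3 FPKM untreated and 12.1 and 10.8 FPKM with TGF-β, -1.05 ± 0.17) and Timp2 (159 and 163 FPKM untreated and 99.1 and 88.8 FPKM with TGF-β, -0.77 ± 0.15) and the aggrecanase Adamts5 (10.0 and 9.62 FPKM untreated and 4.39 and 4.36 FPKM with TGF-β, -1.01 ± 0.14). When 1 EpRas library was left out, increases in this list numbered 5 to 6 and decreases 0 to 2.

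Promoters of 3 increased genes are shown because they hold the letters of an AP-1 element, the binding sequence of Fos and Jun proteins. They are the protein-coding genes with the largest increases among those whose RefSeq promoter window (GRCm38.p6, 250 bases before the start to 50 after) holds TGANTCA on either strand. Mmp10 and Mmp13 are described above, and Ctla2a, which encodes an inhibitor of cathepsin-like cysteine proteases and has a near-identical paralog, rose (13.6 and 15.8 FPKM untreated and 92.5 and 59.1 FPKM with TGF-β, log2 change 2.26 ± 0.33). The windows are chr9:7502092-7502391 on the plus strand for Mmp10, chr9:7272264-7272563 on the plus strand for Mmp13 and chr13:60936576-60936875 on the minus strand for Ctla2a. They are written 5′ to 3′ along the gene with the match in capitals.
Mmp10: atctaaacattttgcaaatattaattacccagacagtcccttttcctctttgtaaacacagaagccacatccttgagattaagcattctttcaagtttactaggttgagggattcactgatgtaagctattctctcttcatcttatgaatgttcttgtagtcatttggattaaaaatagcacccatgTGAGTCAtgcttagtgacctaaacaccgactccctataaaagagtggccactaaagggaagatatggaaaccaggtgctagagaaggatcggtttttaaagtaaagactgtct
Mmp13: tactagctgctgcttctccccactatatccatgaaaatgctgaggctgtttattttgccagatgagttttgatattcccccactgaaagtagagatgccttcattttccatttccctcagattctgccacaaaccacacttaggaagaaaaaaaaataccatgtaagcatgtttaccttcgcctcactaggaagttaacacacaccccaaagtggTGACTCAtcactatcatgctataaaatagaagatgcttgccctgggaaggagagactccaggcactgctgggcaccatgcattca
Ctla2a: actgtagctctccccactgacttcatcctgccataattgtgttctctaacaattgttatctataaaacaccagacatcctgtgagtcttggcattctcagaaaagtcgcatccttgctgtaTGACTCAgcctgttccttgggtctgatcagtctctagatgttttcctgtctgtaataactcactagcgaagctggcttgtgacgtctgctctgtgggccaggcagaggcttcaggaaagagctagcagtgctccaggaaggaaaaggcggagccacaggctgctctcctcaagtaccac
The match began 63 bases before the annotated start in Mmp10, 35 in Mmp13 and 129 in Ctla2a.

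Among genes with such a window, TGANTCA was present in 15 of 130 (11.5%) of those that rose, 14 of 120 (11.7%) of those that fell and 437 of 7238 (6.04%) of all tested genes, and in 8.97% of all 27025 symbols with a window. The Smad element CAGACA stood in 33 of 130 (25.4%), 24 of 120 (20.0%) and 1291 of 7238 (17.8%) in the same order, and the ETS core CCGGAA in 20 of 130 (15.4%), 22 of 120 (18.3%) and 2542 of 7238 (35.1%). Over all symbols with a window the shares were 23.6% for CAGACA and 16.7% for CCGGAA. Both strands were searched, and these motifs share no stretch that would make 1 a part of another. A match is a description of the letters and no measure of binding.

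Laminin and integrin genes were among the increases. Of 20 integrins and laminins tested, 5 rose and 1 fell, against 1.9% and 1.92% of all genes tested (list median 0.22). Lamb3, a laminin beta chain of epithelial basement membranes, rose from 69.7 and 76.3 FPKM to 258 and 253 FPKM (log2 change 1.80 ± 0.14, adjusted p = 0.000761), and the alpha chain gene Lama3 rose too. The collagen receptor subunit Itga2 (3.34 and 4.75 FPKM untreated and 23.8 and 19.4 FPKM with TGF-β, 2.17 ± 0.19) and the fibronectin receptor subunit Itga5 (45 and 46.8 FPKM untreated and 154 and 198 FPKM with TGF-β, 1.91 ± 0.17) rose as well. Lama5, the alpha chain of other basement membrane laminins, fell (104 and 85 FPKM untreated and 38.6 and 40.9 FPKM with TGF-β, -1.22 ± 0.17). In the actin and contractile list, 4 of 31 rose and 0 fell by limma, while 9 were higher and 1 lower at an unadjusted p under 0.05, against 7.78% and 8.07% of all genes tested. The Tukey-Kramer test, run on FPKM itself, called 0. The 4 were Ankrd1, a mechanosensitive ankyrin repeat protein (81.1 and 89.7 FPKM untreated and 236 and 185 FPKM with TGF-β, 1.28 ± 0.18), the stress fibre protein Palld (10.3 and 10.9 FPKM untreated and 21.1 and 19.7 FPKM with TGF-β, 0.88 ± 0.14), the membrane-actin linker Msn (246 and 286 FPKM untreated and 496 and 451 FPKM with TGF-β, 0.83 ± 0.16) and Csrp1 (84.1 and 73.9 FPKM untreated and 127 and 139 FPKM with TGF-β, 0.75 ± 0.15). The actin list held 0 to 3 calls when 1 EpRas library was left out, and the adhesion list 4 to 6 increases and 0 to 1 decreases.

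Several secreted growth factors rose. Of 26 growth factors and receptors tested, 6 rose and 1 fell, against 1.9% and 1.92% of all genes tested (list median 0.06). The angiogenic factor Vegfa went from 61.9 and 54 FPKM to 296 and 370.0 FPKM (log2 change 2.50 ± 0.17) and its lymphatic relative Vegfc from 5.49 and 4.2 FPKM to 28.6 and 32.4 FPKM (2.43 ± 0.17). Pdgfa, a ligand for PDGF receptor alpha, stood at 71.5 and 68.6 FPKM untreated and 336 and 340.4 FPKM with TGF-β (2.26 ± 0.14), and the EGF receptor ligand Hbegf at 42 and 31.5 FPKM untreated and 119.7 and 157 FPKM with TGF-β (1.88 ± 0.21). Areg and Pdgfc rose too. Fgfbp1, which releases FGFs from the matrix, fell (149 and 144 FPKM untreated and 63.1 and 53.4 FPKM with TGF-β, -1.32 ± 0.18). Leaving out 1 EpRas library gave 5 to 6 increases and 0 to 2 decreases.

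In the cytokine and chemokine list, 2 of 18 rose and 4 fell, against 1.9% and 1.92% of all genes tested (list median -0.21, and 0.12 in siNC cells). With 1 EpRas library left out, 1 to 2 rose and 1 to 3 fell. Il11, an IL-6 family cytokine, was near the detection limit in untreated cells and present after treatment (0.481 and 0.0862 FPKM untreated and 4.33 and 5.71 FPKM with TGF-β, log2 change 2.24 ± 0.22), which corresponds to 3 and 1 reads untreated and 38 and 39 reads treated. Cxcl16 rose by less (20.7 and 21.6 FPKM untreated and 38.1 and 39 FPKM with TGF-β, 0.84 ± 0.17). The neutrophil-attracting chemokines Cxcl3 (7.23 and 6.29 FPKM untreated and 1.47 and 0.944 FPKM with TGF-β, -1.82 ± 0.25) and Cxcl5 (4.81 and 7.24 FPKM untreated and 1.5 and 1.76 FPKM with TGF-β, -1.40 ± 0.22), the macrophage growth factor Csf1 (77.7 and 73.4 FPKM untreated and 39.8 and 41.5 FPKM with TGF-β, -0.88 ± 0.14) and the siderophore-binding lipocalin Lcn2 (6.86 and 2.54 FPKM untreated, 0.305 FPKM and listed at 0 with TGF-β) fell. Among 19 Wnt, Notch and Hedgehog genes 2 rose and 3 fell, beside the same shares of all genes. Wnt11 rose from 0.216 and 0.407 FPKM to 5.91 and 7.99 FPKM (2.59 ± 0.21, 2 and 7 reads against 77 and 81) and the Notch ligand Jag1 from 1.95 and 1.65 FPKM to 10.2 and 12.1 FPKM (2.12 ± 0.16). Both reached the 5 FPKM needed for testing only in TGF-β-treated libraries. The Notch ligand Dll1, the Notch modulator Dlk2 (7.77 and 8.58 FPKM untreated and 1.94 and 3.07 FPKM with TGF-β, -1.41 ± 0.21) and Wnt10a fell, and decreases in this list numbered 0 to 2 when 1 EpRas library was left out. In the list of ERK feedback and AP-1 genes, 1 of 23 rose, Fos (0.738 and 1.27 FPKM untreated and 3.77 and 4.59 FPKM with TGF-β, 1.38 ± 0.26), and it was lost whichever EpRas library was left out. Of all genes tested, 1.9% rose at the adjusted threshold. Fos reached the 5 FPKM needed for testing only in a treated EpH4 library. At an unadjusted p under 0.05, 8 of the 23 were higher and 1 lower, against 7.78% and 8.07% of all genes. Both treated libraries were above both untreated ones for 11 of the 23, against 18.5% of all genes. The list's summed level was 1666 and 1299.7 FPKM untreated and 1578 and 2690.2 FPKM with TGF-β.

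Some epithelial genes fell with TGF-β. Of 42 junction and identity genes tested, 6 fell and 0 rose, against 1.92% and 1.9% of all genes tested, the list median was -0.40, and 32 of 42 had a negative difference. Both treated libraries were below both untreated libraries for 27 of the 42, against 20.9% of all genes. At an unadjusted p under 0.05, 20 were lower and 2 higher, against 8.07% and 7.78% of all genes, and the Tukey-Kramer test called 0. The list's summed level was 6643 and 5350.0 FPKM untreated and 3524 and 5574 FPKM with TGF-β, so that 1 treated library lay between the untreated ones, and the list median in siNC cells was 0.10. Those that fell were Ppl, the plakin that ties keratin to desmosomes (11.6 and 8.93 FPKM untreated and 1.34 and 0.798 FPKM with TGF-β, log2 change -2.45 ± 0.21), the tight junction protein Marveld3 (7.56 and 6.75 FPKM untreated and 1.29 and 2.05 FPKM with TGF-β, -1.62 ± 0.23), the keratins Krt7 (2275 and 1908 FPKM untreated and 845 and 1120.0 FPKM with TGF-β, -1.10 ± 0.21) and Krt14, the epithelial ETS factor Elf3 (7.88 and 6.51 FPKM untreated and 3.54 and 2.79 FPKM with TGF-β, -0.98 ± 0.17) and the vesicle GTPase Rab25. With 1 EpRas library left out, 1 to 6 fell. A member of the list was also called as a rise without the first treated library. Cdh1 was at 24.4 and 27.4 FPKM untreated and 20.6 and 18.2 FPKM with TGF-β and did not pass the test (-0.40 ± 0.15, adjusted p = 0.269), nor did Esrp2, an epithelial splicing regulator (8.14 and 6.45 FPKM untreated and 6.1 and 4.24 FPKM with TGF-β, adjusted p = 0.419).

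On the mesenchymal side, Cdh2 stood at 35.8 and 26.2 FPKM untreated and 21.2 and 21.6 FPKM with TGF-β (-0.50 ± 0.19, adjusted p = 0.253) and Vim at 924 and 1156 FPKM untreated and 939 and 915 FPKM with TGF-β (-0.16 ± 0.24, adjusted p = 0.823), neither passing the test. Of 12 EMT transcription factors tested, 0 rose and 0 fell by limma, against 1.9% and 1.92% of all genes tested. At an unadjusted p under 0.05, 1 was higher and 1 lower, against 7.78% and 8.07% of all genes, and the Tukey-Kramer test called 0. The list median was -0.08, while in siNC cells it was 0.56. Snai1, the transcription factor Snail, was at 19.2 and 17 FPKM untreated and 31 and 44.4 FPKM with TGF-β (1.0 ± 0.26, adjusted p = 0.0993), and its 2 treated values lay above both untreated values. Twist1 was at 23.3 and 26.9 FPKM untreated and 15.3 and 17.9 FPKM with TGF-β (-0.57 ± 0.20) and Hmga2, a chromatin protein, at 42.5 and 58.4 FPKM untreated and 75.9 and 76.6 FPKM with TGF-β (0.60 ± 0.27). The ETS factors Etv4 and Etv5 were at 64.8 and 62.2 FPKM untreated and 71.7 and 65.3 FPKM with TGF-β and 10.9 and 9.5 FPKM untreated and 8.6 and 9.38 FPKM with TGF-β, with differences of 0.11 ± 0.17 and -0.16 ± 0.15.

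**Figure D2:**
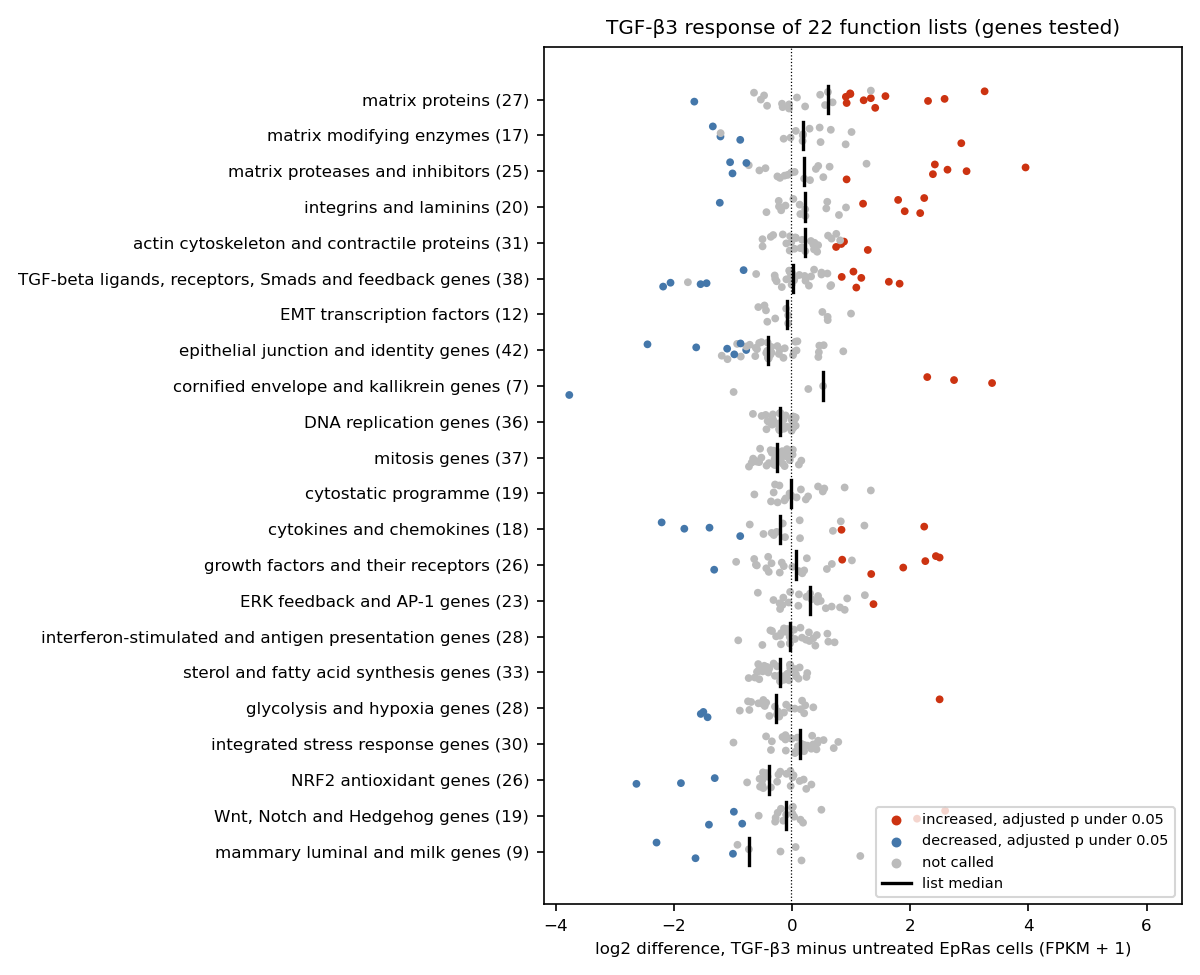
Log2 difference in FPKM + 1 between TGF-β3-treated and untreated EpRas cells for the tested members of 22 function lists (number tested in brackets); each point is a gene, red for increased, blue for decreased and grey for not called, and the black bar is the list's median. Matrix proteins have a median of 0.61 and 11 red points, while the points of DNA replication and mitosis genes are all grey and lie within 1 log2 unit of 0.

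Some genes of skin and gland differentiation changed. In the list of cornified envelope and kallikrein genes only 7 of 59 listed genes were high enough to test. In all 4 EpRas libraries 42 were listed at 0. Of the 7, 3 rose and 1, Klk10, fell, against 1.9% and 1.92% of all genes tested. Those that rose were late cornified envelope genes: Lce1f (0.542 and 0.583 FPKM untreated and 16.9 and 13.9 FPKM with TGF-β, log2 change 3.39 ± 0.22, or 1 and 2 reads against 44 and 28), Lce1g (48.5 and 34.6 FPKM untreated and 320.2 and 244 FPKM with TGF-β, 2.74 ± 0.35) and Lce1h (13.8 and 14.9 FPKM untreated and 80.2 and 68.3 FPKM with TGF-β, 2.29 ± 0.27). They are near-identical neighbours on chromosome 3, so reads may have been split among them and their separate values are uncertain. Lce1f reached the 5 FPKM needed for testing only in TGF-β-treated libraries. With 1 EpRas library left out, 2 to 3 genes of this list rose and 1 to 2 fell. Of 9 mammary luminal and milk genes tested, 3 fell, against 1.92% of all genes tested, 0 rose and the median was -0.73. Those that fell were Xdh, a xanthine dehydrogenase needed for milk fat droplets (11.3 and 9.76 FPKM untreated and 1.76 and 0.990 FPKM with TGF-β, -2.29 ± 0.23), the luminal transcription factor Gata3 (21.1 and 17.7 FPKM untreated and 8.3 and 10.2 FPKM with TGF-β, -1.0 ± 0.19) and Cebpd (31.8 and 22.7 FPKM untreated and 6.55 and 9.67 FPKM with TGF-β, -1.63 ± 0.26). Without 1 EpRas library, 1 to 3 of the 9 fell. At an unadjusted p under 0.05, 5 luminal genes were lower and 1 higher, against 8.07% and 7.78% of all genes, and the Tukey-Kramer test called 0 in the list. The list median in siNC cells was -0.07. The list's sums were 3723 and 2048 FPKM untreated and 1245 and 1949 FPKM with TGF-β, the higher treated sum being close to the lower untreated one.

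Some detoxification and hypoxia genes fell. Of 26 NRF2 antioxidant genes tested, 3 fell and 0 rose, against 1.92% and 1.9% of all genes, with a median of -0.39. At an unadjusted p under 0.05, 10 were lower and 0 higher, against 8.07% and 7.78% of all genes (Tukey-Kramer, 0 called). In siNC cells the list median was -0.0044. The list's summed level was 9234 and 8022 FPKM untreated and 5789.8 and 7972 FPKM with TGF-β, so the higher treated sum was close to the lower untreated one. Those that fell were the glutathione transferases Gsta4 (43.2 and 44.3 FPKM untreated and 8.65 and 4.39 FPKM with TGF-β, log2 change -2.63 ± 0.28) and Gstm1 (36.1 and 26.4 FPKM untreated and 8.35 and 7.01 FPKM with TGF-β, -1.88 ± 0.24) and the quinone reductase Nqo1 (13 and 17.5 FPKM untreated and 5.0 and 6.05 FPKM with TGF-β, -1.31 ± 0.26). Of 28 glycolysis and hypoxia genes, Vegfa rose and 3 fell, with 1.9% and 1.92% of all genes beside them and a median of -0.27. Those were Car9, a carbonic anhydrase that hypoxia induces (45.8 and 47.9 FPKM untreated and 14.6 and 16.3 FPKM with TGF-β, -1.54 ± 0.17), the oxygen sensor Egln3 (5.42 and 4.49 FPKM untreated and 1.28 and 0.928 FPKM with TGF-β, -1.50 ± 0.16) and the vasodilator peptide Adm (2.13 and 2.29 FPKM untreated and 0.168 and 0.216 FPKM with TGF-β, -1.43 ± 0.22). Egln3 reached the 5 FPKM needed for testing only in the first untreated EpRas library, and Adm only in untreated EpH4 cells. When 1 EpRas library was left out, 1 to 2 NRF2 genes and 2 to 4 hypoxia genes fell.

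Growth and stress programmes held no calls in the reported fit. With only genes that have a transcript of at least 1000 bases tested, 1 mitosis gene and 1 interferon gene fell. Fits without a treated EpRas library also called members of the interferon and stress response lists. By limma, 0 of 36 DNA replication genes, 0 of 37 mitosis genes, 0 of 19 genes of the cytostatic programme, 0 of 28 interferon-stimulated and antigen presentation genes, 0 of 33 sterol and fatty acid synthesis genes and 0 of 30 integrated stress response genes passed the threshold, and the Tukey-Kramer test also called 0 in each. At an unadjusted p under 0.05, which 7.78% of all genes passed as higher and 8.07% as lower, 3 replication, 11 mitosis and 9 sterol genes were lower with 0 higher, 4 cytostatic genes were higher and 1 lower, 4 interferon genes higher and 1 lower, and 4 stress response genes higher with 0 lower. The medians of the replication and mitosis lists were -0.20 and -0.26, and both treated libraries were below both untreated ones for 16 of 36 and 19 of 37 genes, against 20.9% of all genes. The cell cycle inhibitor Cdkn1a was at 98.1 and 99.6 FPKM untreated and 106 and 135 FPKM with TGF-β (0.27 ± 0.16) and Myc, which TGF-β represses in many epithelia, at 105 and 91.4 FPKM untreated and 119 and 149 FPKM with TGF-β (0.44 ± 0.18). The mitotic gene with the largest difference, Anln, was at 55.9 and 62.4 FPKM untreated and 38.3 and 32.4 FPKM with TGF-β (-0.73 ± 0.17, adjusted p = 0.0646).

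The response of EpRas cells was set beside that of parental EpH4 cells, measured in the same table, in which 590 genes (6.48%) rose and 265 (2.91%) fell. That total of 855 was 239 to 366 without 1 EpH4 library and 1493 with array weights, and the shared counts below rest on it. The cell lines also differed in serum, so the line and the medium cannot be told apart. Of the 173 genes that rose in EpRas cells, 163 had a positive difference in EpH4 cells and 142 were called there, against 6.48% of all genes tested. Of the 175 that fell, 155 had a negative difference in EpH4 cells and 91 were called, against 2.91%. The median EpH4 difference over all genes tested was -0.02. Calls in the 2 lines share 1 estimate of spread per gene, so they are not independent. The median change of the increased genes was 1.33 in EpRas and 1.41 in EpH4 cells, and that of the decreased genes -1.25 and -0.76, where the choice of genes on the EpRas values favours the EpRas side. A test of the difference between the 2 responses (interaction term in limma) called 73 genes (0.802%), of which 14 had risen and 13 had fallen in EpRas cells. In 57 of the 73 the EpRas difference was the lower one. This count ranged from 10 to 127 when 1 of the 8 libraries was left out.

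Genes that rose in EpRas cells differed from EpH4 cells in both directions. Rgs16 changed by 2.96 in EpRas cells and 0.90 in EpH4 cells (11.7 and 11.4 FPKM to 22.9 and 22.1 FPKM), a difference of 2.06 (interaction, adjusted p = 0.00798). Il11 changed by 2.24 and 0.28, staying under 1 FPKM in EpH4 cells, and entered the test only through 1 treated EpRas library. Ankrd1 changed by 1.28 and -0.25 (adjusted p = 0.0491). Adamts4 rose in both lines and by less in EpRas cells (2.38 against 4.83, adjusted p = 0.0221). Pvrl4, the adhesion protein nectin 4, rose from 0.260 and 0.279 FPKM to 1.11 and 1.27 FPKM in EpRas cells but from 9.67 and 8.95 FPKM to 79.7 and 69.2 FPKM in EpH4 cells (adjusted p = 0.00798). Grem1, at 25.7 and 46 FPKM in treated EpRas cells, was listed at 0 in all 4 EpH4 libraries, and its interaction did not pass (adjusted p = 0.139).

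Among genes that fell in EpRas cells, Krt14 and Pdgfrl, a PDGF-receptor-like gene, rose in EpH4 cells. The EpRas calls of Krt14 and Pdgfrl did not hold in most alternative settings. Krt14, a basal keratin, was at 103 and 115 FPKM untreated and 62.2 and 64.6 FPKM with TGF-β in EpRas cells and went from 327 and 386 FPKM to 851 and 784 FPKM in EpH4 cells (difference -1.98, adjusted p = 0.0127). Krt7 changed by -1.10 in EpRas cells and 0.78 in EpH4 cells (adjusted p = 0.0491), and Pdgfrl by -1.09 and 2.32 (adjusted p = 0.00729). Aqp1 fell in EpRas cells and stayed between 12.9 and 18.6 FPKM in the 4 EpH4 libraries (difference -2.68, adjusted p = 0.00621). St3gal5, the ganglioside GM3 synthase, changed by -2.02 and -0.16 (adjusted p = 0.0371), and Mgp fell in both lines, by 4.56 and 2.52 (adjusted p = 0.0496). Dlk2 dropped by less in EpRas than in EpH4 cells (-1.41 against -3.82, adjusted p = 0.0172), its untreated level being 7.77 and 8.58 FPKM against 39 and 36.7 FPKM. The other 46 genes past this test were not called in EpRas cells and were all called in EpH4 cells.

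**Figure D3:**
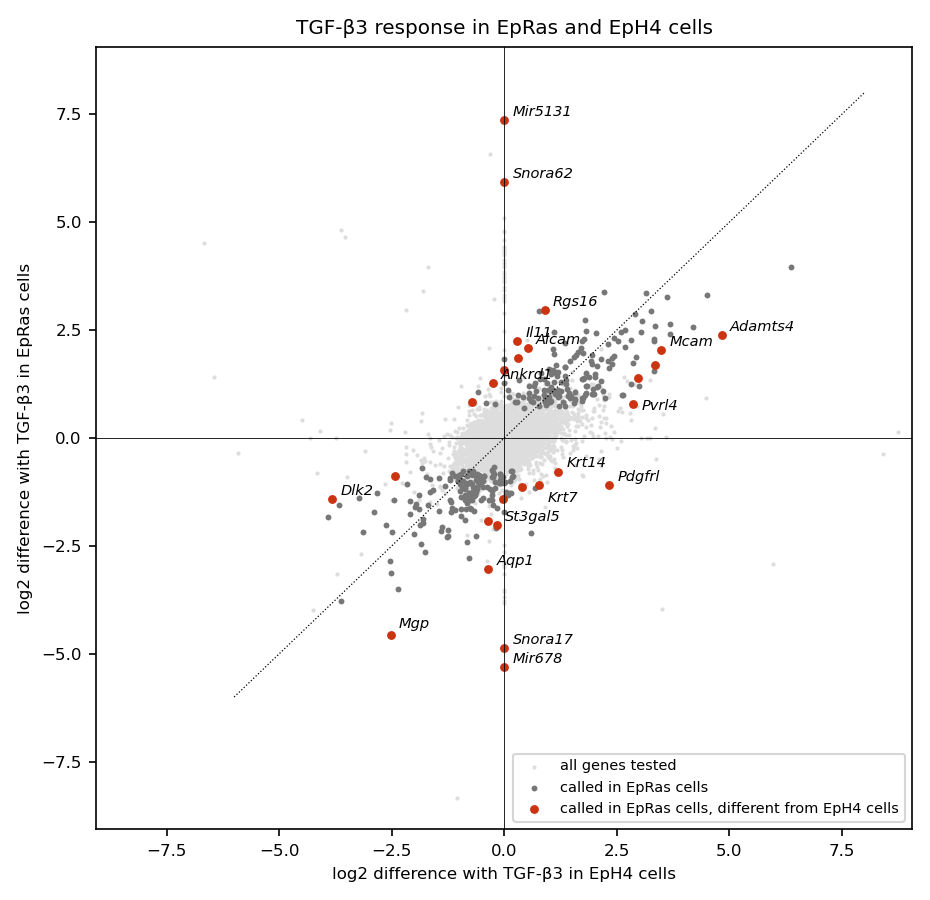
Log2 difference with TGF-β3 in EpH4 cells (horizontal) against EpRas cells (vertical) for 9100 genes (light grey), with the genes called in EpRas cells in dark grey and those of them whose responses differ between the lines in red. Equal responses lie on the dotted line, and the small RNA genes Mir5131, Snora62, Snora17 and Mir678 lie on the vertical axis because they were listed at 0 in all 4 EpH4 libraries.

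The siNC-transfected EpRas cells gave a second look at the same treatment in libraries that were not used to choose genes. Each arm was 1 library, processed and normalized separately, so there is no test. Of the 173 increased genes, 168 were higher with TGF-β in siNC cells and 99 were at least 2-fold higher, against 50.2% and 3.16% of all genes tested. Of the 175 decreased genes, 161 were lower and 51 at least 2-fold lower, against 49.2% and 2.14%. The median changes were 1.10 and -0.73, smaller in size than the 1.33 and -1.25 on which the genes were chosen. In cells given the first siRNA pair against Etv4 and Etv5, 168 increased genes were higher (122 at least 2-fold, against 3.48% of all genes) and 166 decreased genes were lower (95 at least 2-fold, against 2.91%). With the second pair 170 were higher (134 at least 2-fold, against 3.98%) and 166 lower (102 at least 2-fold, against 2.84%).

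Named genes could differ in level between the 2 EpRas experiments. Mmp9 went from 10.7 to 319 FPKM in siNC cells and Il11 from 0.154 to 9.94 FPKM. Rgs16, by contrast, was already at 21.7 FPKM in untreated siNC cells and at 33.6 FPKM with TGF-β. Inmt, which fell from 12.6 and 8.41 FPKM in untransfected cells, was at 0.164 and 0.0942 FPKM in siNC cells. Slpi was at 37.9 and 35.4 FPKM, and Timp3 at 61.9 and 104 FPKM, the reverse of its direction in untransfected cells. Krt7 and Krt14 were also higher with TGF-β in siNC cells, at 1893 and 2103 FPKM and at 109 and 140.1 FPKM. So were Csf1, at 28.0 and 36.0 FPKM, and Pdgfrl, at 0.910 and 1.51 FPKM. Mgp and Aqp1 fell in siNC cells from low levels, at 4.06 and 1.17 FPKM and at 1.00 and 0.0907 FPKM. In untransfected untreated cells they had been at 54.8 and 44.2 FPKM and at 12.5 and 14.4 FPKM.

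**Figure D4:**
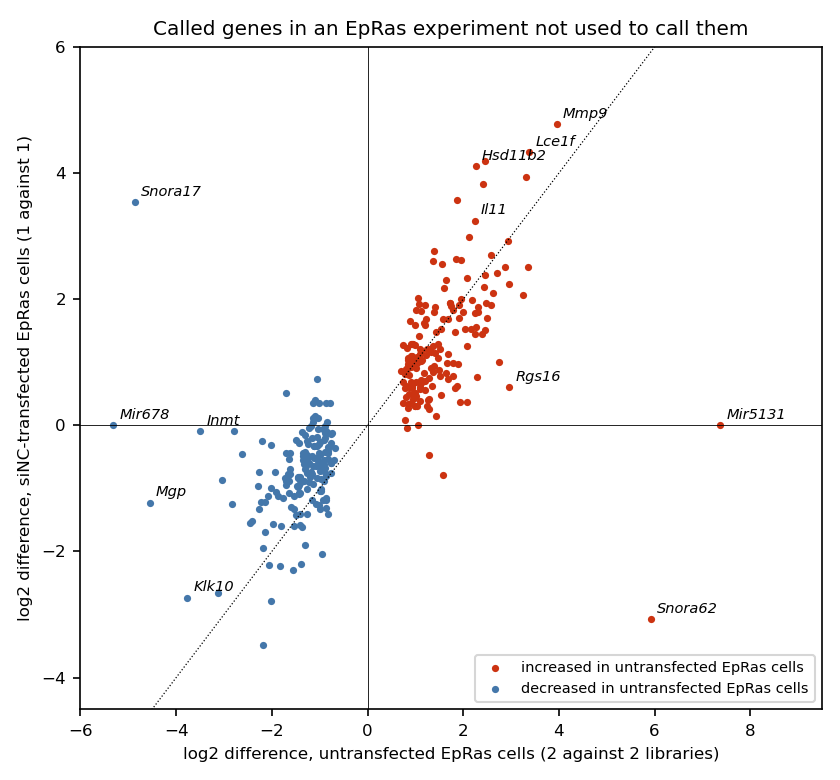
Log2 difference with TGF-β3 in untransfected EpRas cells (horizontal, 2 against 2 libraries) and in siNC-transfected EpRas cells (vertical, 1 against 1) for the 348 called genes, red for increased and blue for decreased; equal changes lie on the dotted line. Of the red points 168 of 173 lie above 0 and of the blue points 161 of 175 below 0, while Snora62 and Snora17 lie on the opposite side.

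The 2 treated EpRas libraries deviated from each other in a patterned way. Of 7976 genes with a mean of at least 5 FPKM over the treated pair, 301 were at least 2-fold higher in the second library and 133 at least 2-fold lower. All 10 genes that were lowest in the second library relative to the first, and 6 of the 10 that were highest, encode small RNAs such as snoRNAs and microRNAs. Snord100, for example, was at 1643 and 0 FPKM, and Snord92 at 0 and 524 FPKM. Among other genes, named after their values were seen, the second library was higher for Fosl1, an AP-1 subunit (29.3 and 217 FPKM with TGF-β, 136 and 63.7 FPKM untreated), Pam16 (19.8 and 224 FPKM), Ndufs5 (8.1 and 66.4 FPKM), Cst3 (293 and 1265 FPKM) and Rps18 (829 and 4589 FPKM). It was lower for the kinase gene Map3k12 (108 and 11.5 FPKM) and for Capza2 (68.3 and 22 FPKM).

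This difference varied with transcript length. For genes whose longest transcript has 600 to under 1000 bases the median difference between the second and first treated library was 0.31 on the log2 scale, and it was 0.20 for 1000 to under 2000 bases, 0.08 for 2000 to under 4000 and -0.04 from 4000 bases up. Shorter genes broke this order, with 0.24 for the 57 genes of 300 to under 600 bases and -1.12 for the 93 genes under 300 bases. From 600 bases up the untreated pair ran the other way, with -0.10, -0.10, -0.05 and 0.01. Of 80 genes of cytosolic ribosomal proteins, 67 were higher in the second treated library and 57 lower in the second untreated one. Their longest transcripts had a median of 1106 bases. Their median treated difference was 0.76, against 0.20 for all genes of 1000 to under 2000 bases, so it was larger than that of genes of like length. Their summed level was 141388 and 113542 FPKM untreated and 78664 and 135448 FPKM with TGF-β. Their median difference with TGF-β was -0.27. When the test, in an alternative chosen after seeing the data, was limited to genes with a transcript of at least 1000 bases, 187 rose and 176 fell.

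**Figure D5:**
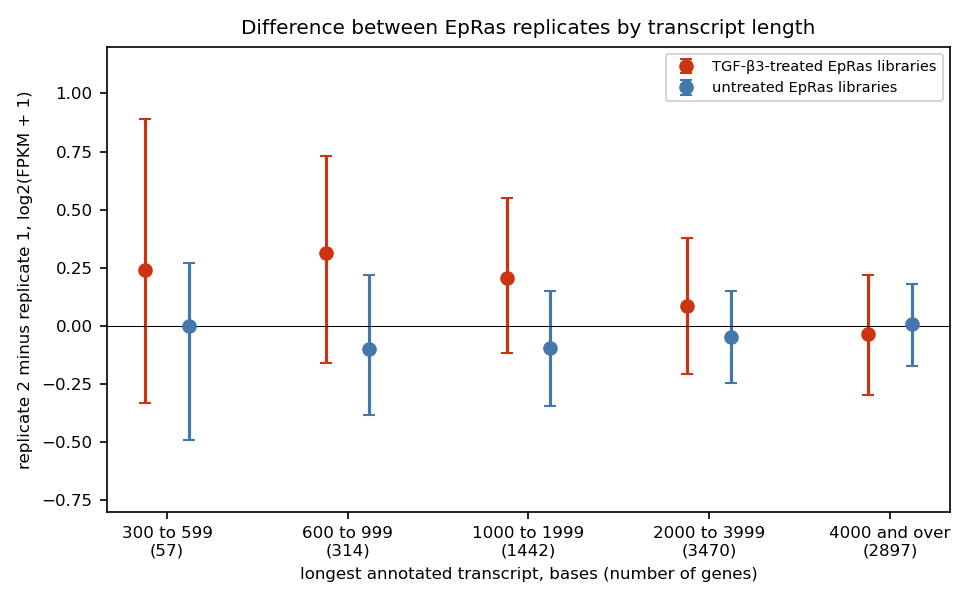
Difference between replicate 2 and replicate 1 in log2(FPKM + 1) for the 2 treated (red) and the 2 untreated (blue) EpRas libraries, by the longest annotated transcript of each gene; points are medians and bars run from the lower to the upper quartile over genes (number in brackets). The treated median falls from 0.31 at 600 to under 1000 bases to -0.04 from 4000 bases, and genes under 300 bases are left out.

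Small RNA genes were also among the calls. Of 91 tested, 3 rose (Mir5131, Snora62 and Snora44) and 2 fell (Mir678 and Snora17) in EpRas cells, against 1.9% and 1.92% of all genes tested. Mir5131 was listed at 0 in both untreated libraries and at 243 and 111 FPKM with TGF-β, and Snora62 at 0 and at 91.1 and 39.1 FPKM. Mir678 was at 39.8 and 37.7 FPKM and listed at 0 after treatment, and Snora17 likewise at 38.5 and 20.7 FPKM and 0. In siNC cells Snora62 was at 206 FPKM untreated and 23.7 FPKM with TGF-β and Snora17 at 0 and 10.6 FPKM, the opposite order, and Mir5131 and Mir678 were listed at 0 in both siNC libraries.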

How the data were processed

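Per the submitters' processing notes, alignment was to mm10 with TopHat2 2.0.11 and Bowtie2, and the authors deposited FPKM from Cufflinks 2.2.0 and Cuffdiff for each gene in 2 tables normalized separately: 8 untransfected and 6 siRNA-transfected libraries. No read counts were used. Here, genes with at least 5 FPKM in 1 of the 8 untransfected libraries and an OK status were tested on log2(FPKM + 1) with limma 3.58.1 (R 4.3.3) over the 4 groups of 2, with Benjamini-Hochberg adjustment over 9100 genes. Each SE and p-value rests on 1 spread per gene over all 8 libraries, so a gene has the same SE in both lines. The median standard deviation was 0.0914 in the treated EpH4 pair and 0.214 in the treated EpRas pair. EpH4 libraries add no spread for Grem1, Mir5131, Snora62, Mir678 and Snora17, listed there at 0, which lowers their SE. FPKM + 1 understates the change of low genes. The filter admits a gene through any 1 library, so genes such as Mmp13 and Mgp entered only through the condition in which they were high. Among further decreases, Adh7 entered only through untreated EpRas libraries, and Ppl, Xdh, Bmp4, Fst, Cxcl3, Leprel1 and Dlk2 only through untreated libraries. With no filter on low values 193 genes rose and 204 fell, and 151 and 144 of these were among the reported calls. The Tukey-Kramer test, which the study's methods name, was an alternative. Reads behind low values were recovered for 2850 genes from the steps in their FPKM. Genes were named by rule: the 15 largest calls each way without small RNA, Gm and Rik genes, up to 4 called members per list and direction, the calls that differ between the lines, the 5 smallest adjusted p each way, the largest gaps between the treated EpRas libraries and the study's marker genes. Other genes named were chosen after their values were seen, as were the lengths, ribosomal protein genes and the crossed pairing. The rule and the gene lists were chosen with earlier results of these data known. Transcript lengths came from GENCODE vM21 (8273 of 9100 genes matched) and promoters from RefSeq. Some genes within the rule are not reported here. The test was checked on simulated data, and the outcome of that check is not given here.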

Additional observations from a re-analysis of the deposited data

Results flagged for a closer look

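Each gene below was picked out because its response to TGF-β differed between EpRas and EpH4 cells by the interaction test in limma (adjusted p from 9.72e-05 to 0.0496). Values are the EpRas log2 change minus the EpH4 log2 change. More positive in EpRas cells were Rgs16 (2.06), Il11 (1.95), Ankrd1 (1.54) and Dlk2 (2.41) (Dlk2 fell in both lines, and by less in EpRas cells). More negative were Pdgfrl (-3.41), Aqp1 (-2.68), Mgp (-2.03), Krt14 (-1.98), Krt7 (-1.87) and St3gal5 (-1.86), which fell in EpRas cells, and Adamts4 (-2.44) and Pvrl4 (-2.09), whose change was smaller in EpRas cells than in EpH4 cells. Pvrl4 was low in EpRas cells (0.260 and 0.279 FPKM untreated and 1.11 and 1.27 FPKM with TGF-β), so the added 1 FPKM weighs on its value. With 0.1 FPKM added, its difference between the lines was -1.19 and that of Adamts4 -1.85, and neither passed the test. The small RNA genes Mir5131 (7.37), Snora62 (5.92), Mir678 (-5.31) and Snora17 (-4.87) were listed at 0 in all 4 EpH4 libraries. These 4 genes and Il11 passed the filter on low values only through the EpRas group in which they were high, so their difference follows in part from their entry into the test. The cell lines were grown in different serum, so the line and the medium cannot be told apart. Of these 16 calls, 4 held with either of the treated EpH4 libraries left out, 6 and 10 without the first or second untreated EpH4 library, 8 and 5 without the first or second untreated EpRas library, and 11 and 14 without the first or second treated one. With 0.1 FPKM added in place of 1, 9 of the 16 held, and 11 held with 0.5 FPKM added, with no filter on low values or with a replicate block. Groups of 2 libraries are too small for a test of single outlying libraries.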

How the results depend on the processing

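Increases, decreases and differences between the lines, reported as 173, 175 and 73 genes, stayed within 1.5-fold of those counts when 0.1, 0.5 or 5 FPKM was added, or with quantile or median scaling. The count moved further elsewhere: 117 differences with no filter on low values, 100 decreases and 24 differences with a mean of at least 10 FPKM, 45 differences with an intensity trend, and 106 increases and 86 decreases with array weights. The EpRas groups alone gave 30 and 15. The Tukey-Kramer test on FPKM called 4 increases (Ank, Lamb3 and Mcam among them) and 4 decreases (Klk10, Klrg2, Mir678 and Nptx1). Without 1 EpRas library increases ran from 70 to 215 and decreases from 54 to 198, and differences from 10 to 127 over the 8 libraries, moving by over 1.5-fold whichever was left out; without either treated EpH4 library 100 rose and 95 fell. The labels do not say that the replicate numbers pair the libraries, and same-numbered libraries did not deviate together. Replicate differences of untreated and treated EpRas cells correlated at -0.35, and those of EpH4 cells at -0.01. Between the lines the correlations ran from -0.26 (untreated EpH4 with untreated EpRas) to 0.08 (untreated EpH4 with treated EpRas). Whether the EpRas numbers are crossed was not tested. With a replicate block the counts were 115, 107 and 31 (547 for EpH4 cells). A crossed replicate block, added after seeing the data, gave 268 increases, 262 decreases and 156 differences. EpH4 calls, reported as 855, were 559 at a mean of 10 FPKM, 1493 with array weights and 239 to 366 without 1 EpH4 library. Genes at least 2-fold apart numbered 140 and 90 with 5 FPKM added, 112 lower at a mean of 10 FPKM, and between 195 and 377 lower without 1 library (377 without the second treated one). Not all called genes named above were followed through these settings. Calls of Dll1, Csrp1, Krt14, Timp2, Msn, Nqo1, Pdgfrl, Pvrl4, Fos and Cxcl16, like that of Leprel1, did not hold in most of the settings. None of the 91 that were followed reversed its direction in any of them. Of 91 such genes, 32 were still called in the EpRas groups alone, and 51, 52, 65 and 72 without each EpRas library in turn. Depth limits genes at low levels: at 5 FPKM the shallowest EpRas library held a median of 45.4 reads.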

Other observations

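The genes below belong to no list above and were chosen after their values were seen, so they are given as values. Increased genes that encode adhesion molecules of the immunoglobulin superfamily included Alcam (2.64 and 2.34 FPKM untreated and 14.6 and 12.8 FPKM with TGF-β, log2 change 2.08 ± 0.15), Mcam (3.01 and 3.52 FPKM untreated and 16.7 and 16.4 FPKM with TGF-β, 2.04 ± 0.14), Ncam1 (3.68 and 2.98 FPKM untreated and 13.3 and 15.3 FPKM with TGF-β, 1.82 ± 0.23) and the poliovirus receptor relatives Pvr (28.3 and 22.4 FPKM untreated and 64.5 and 59.3 FPKM with TGF-β, 1.26 ± 0.16) and Pvrl3 (5.18 and 6.33 FPKM untreated and 20.3 and 11.5 FPKM with TGF-β, 1.28 ± 0.27). The change in EpH4 cells was smaller for Alcam (0.52) and larger for Mcam (3.49), each with a limma adjusted p of 0.0274 for the interaction. Alcam reached the 5 FPKM needed for testing only in treated EpRas cells, so its interaction follows in part from its entry into the test. The receptor tyrosine kinase Ret went from 3.77 and 2.34 FPKM to 17.9 and 24.4 FPKM (2.46 ± 0.23), and Pthlh, the parathyroid hormone-related peptide, from 8.1 and 5.5 FPKM to 24.7 and 26.7 FPKM (1.79 ± 0.21). The cardiac troponin gene Tnnt2, already at 204 and 147 FPKM in untreated cells, reached 579 and 680.2 FPKM (1.85 ± 0.24). Hsd11b2, which inactivates glucocorticoids, was at 0.679 and 0.456 FPKM untreated and 5.18 and 8.06 FPKM with TGF-β (2.26 ± 0.26). Ret reached the 5 FPKM needed for testing only in treated EpRas cells, and Hsd11b2 only in TGF-β-treated libraries.

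The genes of 2 proteins of caveolae, the small pits of the plasma membrane, fell, Cav1 (62.4 and 69 FPKM untreated and 18.8 and 13.6 FPKM with TGF-β, -1.97 ± 0.21) and Sdpr (140.4 and 129 FPKM untreated and 30.3 and 35.3 FPKM with TGF-β, -2.01 ± 0.18), with lower values in EpH4 cells as well (-1.80 and -2.62). The calcium-binding protein S100a4, often used as a mesenchymal marker, fell from 2970.4 and 2974 FPKM to 964 and 1278 FPKM (-1.42 ± 0.17), from a level far above that of untreated EpH4 cells (138 and 135 FPKM). Genes that fell also included the epoxide hydrolase Ephx1 (65.9 and 68.8 FPKM untreated and 16.1 and 12.9 FPKM with TGF-β, -2.15 ± 0.16), the sulfotransferase Sult2b1 (21.8 and 17.7 FPKM untreated and 3.82 and 3.55 FPKM with TGF-β, -2.14 ± 0.19) and the alcohol dehydrogenase Adh7 (6.1 and 5.68 FPKM untreated and 1.37 and 1.09 FPKM with TGF-β, -1.63 ± 0.18). The transcription factor Klf4 fell (28.1 and 26.3 FPKM untreated and 6.0 and 10.3 FPKM with TGF-β, -1.66 ± 0.23) and its relative Klf6 rose (14.1 and 16 FPKM untreated and 36.1 and 31.1 FPKM with TGF-β, 1.11 ± 0.17). The complement gene C3 fell in EpRas cells (13.3 and 12.2 FPKM untreated and 4.99 and 5.49 FPKM with TGF-β, -1.14 ± 0.14) and changed by 0.40 in EpH4 cells (interaction, limma adjusted p = 0.0221).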
